A study of Mus musculus with 42 samples.

Results

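The voltage-gated sodium and calcium channel genes described here are 9 of the 54232 genes in the deposited tables. These genes were chosen by name, with earlier results of these data known. They are Scn1a, Scn2a, Scn3a and Scn8a, which encode the pore-forming alpha subunits of sodium channels, and Cacna1a, Cacna1b, Cacna1c, Cacna1e and Cacna1g, which encode the pore-forming subunits of calcium channels. RNA sequencing was done on 42 mouse brain libraries, 22 labelled hippocampus and 20 labelled cerebellum. Each label held 4 groups: western diet (42% fat) with NaKtide, western diet alone, control diet (11% fat) with NaKtide, and control diet alone, for 12 weeks. The hippocampus label held 6, 5, 5 and 6 libraries in that order, and the cerebellum label 5 in each group. NaKtide is a peptide from the sodium pump that blocks its signalling to the kinase Src, and it was induced in transgenic mice with doxycycline at 300 mg/kg of diet. The transgene and doxycycline therefore went with NaKtide. Whether mice without NaKtide carried a transgene or were fed doxycycline is not in the labels. The labels do not name the promoter of the transgene, although the series title speaks of adipocytes, and they do not give strain, age or sex. They also do not say that each library is a separate animal, so every p-value rests on the spread among libraries, part of which may be technical.

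Voltage-gated sodium channels open when a neuron is depolarised and carry the rising phase of the action potential. Voltage-gated calcium channels turn depolarisation into calcium entry, which triggers transmitter release at terminals and shapes firing in the cell body and dendrites. Scn1a is most prominent in fast-spiking inhibitory neurons, Scn2a and Scn8a in axons of excitatory neurons, and Scn3a in the developing brain. Among calcium channels, Cacna1a (P/Q-type), Cacna1b (N-type) and Cacna1e (R-type) serve mainly transmitter release, Cacna1c (L-type) serves coupling to gene expression, and Cacna1g (T-type) opens near resting potential and supports burst firing in thalamic neurons.

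The region labels and several libraries limit what these levels describe. Totals ran from 4669374 to 9521002 counts per library. Levels are given in CPM, counts scaled to library size. Gabra6, a GABA receptor subunit that marks cerebellar granule cells, reached 10 CPM in 1 of 22 libraries labelled hippocampus and in 3 of 20 labelled cerebellum, and it was under 1 CPM in 15 of those 20. Markers of hippocampal pyramidal cells summed to group medians of 1014 to 1475 CPM under the hippocampus label and 472 to 1016 CPM under the cerebellum label. The cerebellum label is thus not borne out by its defining marker in most of its libraries, and the regions are named as labels below. No libraries of 1 group were as alike as hippocampus control 5 and 6, whose counts gave a chi-square averaging 2.45 a gene (the next pair gave 7.69). Both were kept as labelled. They differed by more than sampling noise, which cannot show whether they come from separate animals. Xist, a transcript of the inactive X chromosome, marked 4 libraries: hippocampus control 5 and 6, hippocampus western NaKtide 6 and cerebellum western NaKtide 5. The 4 libraries with Gabra6 were hippocampus western 4, cerebellum western 3, cerebellum control NaKtide 5 and cerebellum control 1. Some results that rest on either set, or on 1 library of it, are also given without it. A fit of 1 region label could leave out only the libraries of a set under that label. Under the hippocampus label these were hippocampus western 4 for Gabra6, and hippocampus control 5 and 6 and western NaKtide 6 for Xist. In fits of the cerebellum label alone, no log2 difference is given without a whole set.

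The sodium channel genes are neighbours in part. Scn1a (ENSMUSG00000064329, GRCm38 chromosome 2, 66270778 to 66440840, minus strand), Scn2a (ENSMUSG00000075318, chromosome 2, 65620771 to 65767447, plus strand) and Scn3a (ENSMUSG00000057182, chromosome 2, 65457118 to 65567627, minus strand) lie in 1 cluster, and Scn8a lies apart (ENSMUSG00000023033, chromosome 15, 100869858 to 101045938, plus strand). Of the distinct 50-base words in their annotated transcripts, 4.03% for Scn1a, 5.76% for Scn2a and 6.49% for Scn3a also occur in other genes, among them each other and Scn9a, so a small part of their reads could have been split or dropped by the counting. The share was at most 0.636% for the other 6 genes. Cacna1a (ENSMUSG00000034656, chromosome 8, 84388440 to 84640246) overlaps the antisense gene Gm16183, and no source used here says whether strand was used in counting. The other calcium channel genes were Cacna1b (ENSMUSG00000004113, chromosome 2, 24603887 to 24763152), Cacna1c (ENSMUSG00000051331, chromosome 6, 118587240 to 119196418), Cacna1e (ENSMUSG00000004110, chromosome 1, 154390731 to 154884501) and Cacna1g (ENSMUSG00000020866, chromosome 11, 94408391 to 94474198).

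Promoter sequences from RefSeq (build GRCm38.p6, 250 bases before to 50 after a start) were matched for 6 of the 9 genes, with 10 starts in all. Those of Scn1a, Scn2a and Scn8a are shown because, under the hippocampus label, Scn1a and Scn2a fell with NaKtide on the western diet and Scn8a did not pass. They are chr2:66440788-66441087 on the minus strand for Scn1a, chr2:65620519-65620818 on the plus strand for the upstream start of Scn2a, and chr15:100870395-100870694 on the plus strand for the upstream start of Scn8a, printed 5′ to 3′ with CpG dinucleotides in capitals.
Scn1a: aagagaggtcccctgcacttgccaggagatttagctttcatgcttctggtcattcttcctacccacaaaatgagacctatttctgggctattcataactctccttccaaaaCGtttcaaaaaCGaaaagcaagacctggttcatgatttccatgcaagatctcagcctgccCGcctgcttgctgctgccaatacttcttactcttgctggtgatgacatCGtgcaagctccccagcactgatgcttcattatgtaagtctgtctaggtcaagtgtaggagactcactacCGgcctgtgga
Scn2a: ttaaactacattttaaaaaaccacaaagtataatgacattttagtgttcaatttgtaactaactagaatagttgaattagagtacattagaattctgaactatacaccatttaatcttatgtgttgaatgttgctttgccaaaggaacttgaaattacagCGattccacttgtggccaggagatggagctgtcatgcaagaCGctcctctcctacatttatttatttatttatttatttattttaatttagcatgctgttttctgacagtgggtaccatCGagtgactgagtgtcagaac
Scn8a: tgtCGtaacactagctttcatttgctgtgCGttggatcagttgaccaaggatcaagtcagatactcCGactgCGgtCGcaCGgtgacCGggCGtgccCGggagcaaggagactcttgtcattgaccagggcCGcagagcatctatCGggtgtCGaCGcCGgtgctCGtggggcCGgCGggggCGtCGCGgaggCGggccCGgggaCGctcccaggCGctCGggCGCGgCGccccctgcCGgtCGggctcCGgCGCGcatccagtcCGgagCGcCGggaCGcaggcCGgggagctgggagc
The Scn1a window held 5 CpG and 47.3% G and C, and the Scn2a window 3 CpG and 33% G and C. The Scn8a window held 38 CpG and 70% G and C, against medians of 7 CpG and 52.7% over all 32841 promoters of this length. The second starts differed less, with 9 CpG for Scn2a and 12 CpG for Scn8a. Of the other genes that did not pass, Cacna1b held 35 CpG, Cacna1e 11, and the starts of Cacna1c 57, 7 and 3. Of the 10 starts, 2 held the GC box GGGCGG on either strand (Cacna1b and 1 start of Cacna1c), 1 held TATAAA (the second Scn2a start) and 0 held the cyclic AMP response element TGACGTCA, against 35.7%, 13.6% and 1.79% of all promoters. These are descriptions of the letters in the windows, and a link between them and the changes was not tested.

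Per unit of transcript length, Scn8a was the most abundant of the 9 in all 8 groups and Scn3a the least. In FPKM, the authors' counts scaled to library size and exon length, group means of Scn8a ran from 12.1 to 15.2 and those of Scn3a from 0.586 to 1.97. The medians over the 42 libraries were 13.3 FPKM for Scn8a, 6.64 for Cacna1a, 5.90 for Cacna1g, 5.42 for Scn2a, 5.17 for Cacna1b, 4.05 for Cacna1e, 2.66 for Scn1a, 1.95 for Cacna1c and 0.973 for Scn3a. Scn8a exceeded Cacna1a in 40 of 42 libraries, and Cacna1c exceeded Scn3a in 40 of 42. The middle of the order was not separated. Cacna1g exceeded Scn2a in 21 of 42 libraries, Scn2a exceeded Cacna1b in 27, and Cacna1a exceeded Cacna1g in 28, and none of these 3 pairs had ranges apart within any of the 8 groups. Cacna1b exceeded Cacna1e in 36 libraries, Cacna1e exceeded Scn1a in 33, and Scn1a exceeded Cacna1c in 32. These levels use annotated exon lengths of 9942 to 25228 bases, which count every alternative exon.

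**Figure D1:**
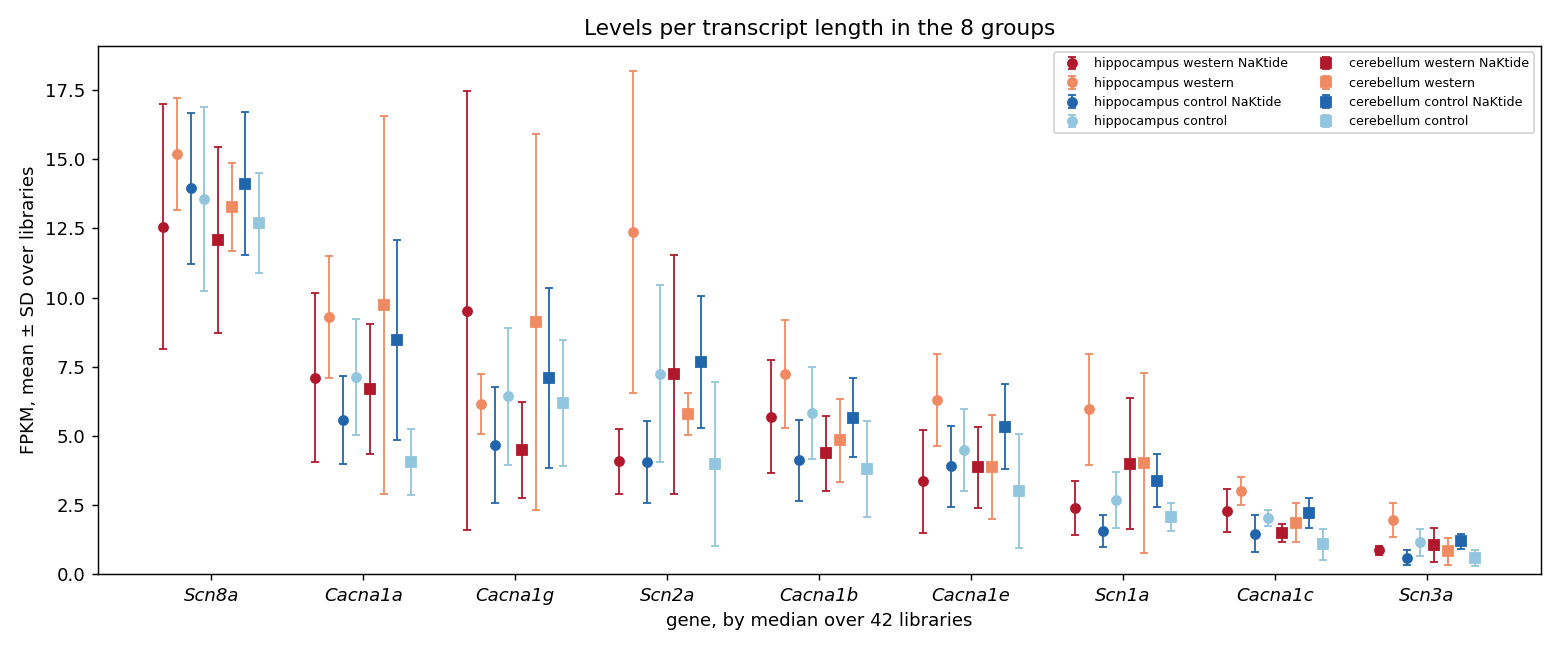
FPKM of the 9 channel genes, ordered by median over 42 libraries, as mean ± SD in each of the 8 groups (circles hippocampus label, squares cerebellum label, n = 5 or 6). Scn8a lies at group means of 12.1 to 15.2 and Scn3a at 0.586 to 1.97, and the genes between them overlap.

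Among the 9, Scn8a varied least between libraries and Scn3a most. Over the 42 libraries Scn8a ran from 108 to 318 CPM, a 2.95-fold range, and Scn3a from 1.40 to 31.6 CPM, a 22.6-fold range. Scn1a spanned 9.77 to 110 CPM (11.2-fold), Scn2a 27.7 to 214 (7.71-fold), Cacna1a 35.2 to 254 (7.23-fold), Cacna1b 19 to 89.5 (4.70-fold), Cacna1c 11.1 to 71.3 (6.45-fold), Cacna1e 21 to 202 (9.62-fold) and Cacna1g 24.7 to 252 (10.2-fold). All 9 passed the filter on low counts in each fit. The lowest raw count behind these values was 8, for Scn3a in cerebellum western 3, and the other genes had at least 39 counts in every library.

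The study compared NaKtide with no NaKtide on the western diet, and 3 sodium channel genes were lower with it in libraries labelled hippocampus. Scn2a fell by 67%, Scn1a by 60% and Scn3a by 56.4% in the fit, whereas Scn8a and the 5 calcium channel genes did not pass. By edgeR's quasi-likelihood test, 3 of the 9 genes were called at a Benjamini-Hochberg adjusted p under 0.05, or 33.3%, all lower, beside 33.7% of all 16442 genes tested in either direction and 16.3% lower. The share called among the 9 is thus close to that of all genes, and the count is no result about channel genes as a class.

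Scn2a, the sodium channel of excitatory axons, ran from 32.9 to 65.9 CPM with a median of 57.8 over the 6 libraries on western diet with NaKtide, against 85.6, 214, 213, 200 and 69.3 CPM in the 5 on western diet alone. The groups did not overlap, with 3 of the western libraries at 200 CPM or more and the lowest western library just above the NaKtide range. The log2 fold change was -1.60 (SE 0.35, adjusted p = 0.00374 by edgeR), lower in 6 of 6 libraries.

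Scn1a, the sodium channel of inhibitory neurons, ran from 14.2 to 40.9 CPM with a median of 25.1 on western diet with NaKtide, against 42.2, 98.6, 70.2, 70.3 and 49.6 CPM on western diet alone. The highest NaKtide library lay just under the lowest western library, so the groups did not overlap. The log2 fold change was -1.32 (SE 0.31, adjusted p = 0.00475 by edgeR), lower in 6 of 6 libraries.

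Scn3a, the sodium channel best known from development, ran from 7.36 to 13.4 CPM with a median of 10.6 on western diet with NaKtide, against 19.2, 31.3, 25.3, 31.6 and 14.8 CPM on western diet alone. All 6 NaKtide libraries again lay below all 5 western libraries. The log2 fold change was -1.20 (SE 0.29, adjusted p = 0.00534 by edgeR). Ranges apart in either direction were found for 13.2% of all genes tested in this comparison.

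The other 6 genes did not pass in the same fit. Cacna1e, the R-type channel, averaged 85.8 ± 48.3 CPM on western diet with NaKtide and 158 ± 40.2 CPM on western diet alone (SD, n = 6 and 5), a log2 difference of -0.90 (SE 0.36, adjusted p = 0.0589 by edgeR, 0.0418 by DESeq2). Its NaKtide libraries ran from 21 to 155 CPM and overlapped the western ones, from 97.6 to 199 CPM. Scn8a differed by -0.27 (SE 0.21, adjusted p = 0.319), Cacna1a by -0.39 (SE 0.27, adjusted p = 0.263), Cacna1b by -0.35 (SE 0.27, adjusted p = 0.323) and Cacna1c by -0.39 (SE 0.25, adjusted p = 0.233). Cacna1g was the one with a positive value, 0.62 (SE 0.42, adjusted p = 0.254), and this value was 0.06 without hippocampus western NaKtide 3, which held 252 CPM of it against 24.7 to 97.1 CPM in the other 5 NaKtide libraries.

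**Figure D2:**
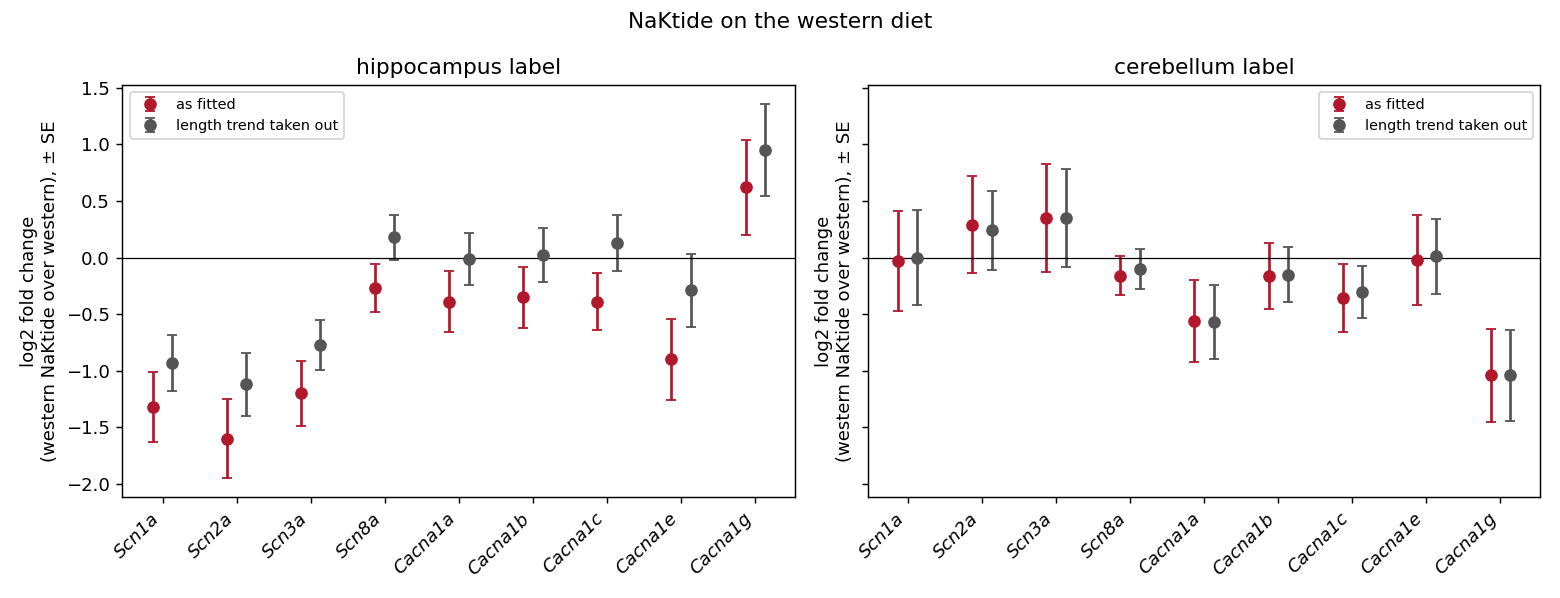
Log2 fold change ± SE of each gene for western diet with NaKtide over western diet alone, in libraries labelled hippocampus (left) and cerebellum (right), as fitted (red) and with the trend of each library with exon length taken out (grey). Under the hippocampus label Scn1a, Scn2a and Scn3a lie at -1.20 to -1.60 as fitted and at -0.77 to -1.12 with the trend taken out.

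Transcript length moved with this comparison. Of 1383 other genes tested with at least 10000 bases of exons, 542 were lower and 41 higher, with a median log2 change of -0.41, against 0.05 over all genes and -0.39 over the 9 channel genes, of which all but Cacna1b are that long. With the trend of each library with exon length taken out, 27.8% of all genes were called. Scn1a then changed by -0.93 (SE 0.25, adjusted p = 0.0114), Scn2a by -1.12 (SE 0.28, adjusted p = 0.00932) and Scn3a by -0.77 (SE 0.22, adjusted p = 0.0172), and the median of the 9 became -0.01. The 3 falls were thus as called with the trend removed but smaller, and the difference for Cacna1e became -0.29 (SE 0.32, adjusted p = 0.522).

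Markers of other cells and regions also moved with these groups. Dentate granule cell markers summed to 79.3 to 185 CPM on western diet with NaKtide and 160 to 548 CPM on western diet alone, and 5 of 9 fell (median log2 change -1.64). Of 10 pan-neuronal markers, 4 fell and 1 rose (median -0.29), with sums of 4563 to 6599 CPM against 6467 to 7204 CPM. Hippocampal pyramidal cell markers summed to 368 to 1495 CPM with NaKtide and 821 to 1662 CPM without, and 1 of 10 fell. Of 10 markers of striatal medium spiny neurons 5 rose, with sums of 269 to 5264 CPM against 208 to 576 CPM, and 4 of 8 microglia markers rose, with sums of 363 to 524 CPM against 259 to 416 CPM. Oligodendrocyte markers summed to 2252 to 21902 CPM with NaKtide and 3474 to 10090 CPM without. Inhibitory interneuron markers summed to 1046 to 1628 CPM with NaKtide (median 1371) and 1085 to 1199 CPM without (median 1105). Thalamus markers summed to 61.8 to 1394 CPM with NaKtide (median 186) and 102 to 644 CPM without (median 205). No marker of these lists was at 0 in every library of a group. In bulk RNA, fewer cells of a type and less RNA per cell cannot be told apart, and the part of tissue content in the falls of Scn1a, Scn2a and Scn3a was not tested. Hippocampus western 4 was the only library under this label with Gabra6 of at least 10 CPM. Without it, an alternative chosen after seeing the data that leaves out 1 library, the log2 changes were -1.30 for Scn1a (adjusted p = 0.0153 by edgeR), -1.49 for Scn2a (adjusted p = 0.0146) and -1.09 for Scn3a (adjusted p = 0.0205). Without the libraries of this label marked by Xist, hippocampus control 5 and 6 and western NaKtide 6, the changes were -1.29, -1.67 and -1.27.

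Auxiliary subunits and partners of these channels were read in the same fit. Of 40 tested genes among 46 other channel subunits, anchors and modulators, 13 fell and 2 rose, with a median of -0.32. These are 32.5% and 5%, beside 16.3% and 17.4% of all genes tested. The smallest p among those lower belonged to Nalcn, the sodium leak channel that sets resting excitability, at 32.6 ± 7.94 CPM on western diet with NaKtide and 70.2 ± 16.5 CPM on western diet alone (SD, log2 change -1.12, SE 0.23, adjusted p = 0.00277). Ank2, an ankyrin that anchors channels to the membrane skeleton, fell by 0.87 (SE 0.20, adjusted p = 0.00443) and Fgf13, an intracellular partner of sodium channels, fell by 1.09 (SE 0.26, adjusted p = 0.00506). Cacng4, of the family of calcium channel gamma subunits and AMPA receptor partners, rose by 1.33 (SE 0.30, adjusted p = 0.00404), at 96.5 ± 33.9 CPM with NaKtide and 38.4 ± 12.2 CPM without. By role, 7 of 14 anchors and modulators, 2 of 4 sodium channel beta subunits, 1 of 4 calcium channel beta subunits and 1 of 4 alpha2delta subunits fell, and 0 of 3 other calcium channel pore genes were called. With the length trend taken out 7 of the 40 fell and 3 rose, with a median of -0.06, beside 27.8% of all genes called in either direction. The share of falls above that of all genes is thus given only as fitted, as are the values of Nalcn, Ank2, Fgf13 and Cacng4.

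In libraries labelled cerebellum the same comparison gave no call. Scn1a averaged 44.8 ± 26.7 CPM on western diet with NaKtide and 45.6 ± 36.5 CPM on western diet alone, Scn2a 92.3 ± 54.9 and 75.3 ± 9.87 CPM, and Scn3a 13.3 ± 7.68 and 10.4 ± 6.17 CPM (SD, n = 5 each). EdgeR called 0 of 9 genes, beside 0% of 16338 genes tested (679, or 4.16%, at an unadjusted p under 0.05). Of the 9, 1 had an unadjusted p under 0.05, and DESeq2 called 0. The median log2 difference of the 9 was -0.16, against 0.00 over all genes.

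The smallest p there belonged to Cacna1g and Cacna1a. Cacna1g stood at 31.2, 25.6, 44.9, 60.4 and 65.8 CPM on western diet with NaKtide, against 58, 52.7, 217, 87.2 and 55 CPM on western diet alone (log2 difference -1.04, SE 0.41, adjusted p = 1 by edgeR). The groups overlapped, 1 western library stood far above the rest, and without it, cerebellum western 3, the difference was -0.47. Cacna1a stood at 70.4, 51.5, 57.8, 118 and 85.8 CPM with NaKtide, against 64.9, 84.3, 254, 77.9 and 84.6 CPM without (log2 difference -0.56, SE 0.36, adjusted p = 1 by edgeR). The same western library was the high one, and without it the difference was -0.02. Purkinje cell markers had a median of -1.53 in this comparison, and their part was not tested.

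The difference of the NaKtide effect between the region labels was tested in 1 fit of all 42 libraries. Scn2a passed, with a log2 difference of -1.87 (SE 0.57, adjusted p = 0.0374 by edgeR), since it was lower with NaKtide under the hippocampus label and 0.29 higher, without passing, under the cerebellum label. This was 1 of 9 genes, beside 8.84% of all 17088 genes tested. DESeq2 called Scn2a, Scn3a and Cacna1g, beside 12.7% of all genes. Scn3a differed by -1.52 (SE 0.56, adjusted p = 0.0738), Scn1a by -1.27 (SE 0.55, adjusted p = 0.118) and Cacna1g by 1.69 (SE 0.61, adjusted p = 0.0711), and the other 5 lay between -0.86 and 0.20. Cacna1g passed with the length trend taken out (1.99, adjusted p = 0.0338), and stood at 1.09 (adjusted p = 0.225) without cerebellum western 3. The Scn2a call was lost under 15 of the settings run: its adjusted p was 0.0507 with the compared groups only, 0.0531 with the length trend taken out, 0.0596 without the 4 libraries marked by Xist and 0.114 without the 4 libraries with Gabra6. It was also lost when any 1 of 11 libraries was left out: cerebellum western 1, 3 or 5, cerebellum western NaKtide 1, 4 or 5, hippocampus western 2, 3 or 4, or hippocampus western NaKtide 1 or 3, with a highest adjusted p of 0.0956 and log2 differences of -1.65 to -2.12 over all leave-one-out fits. Of the other channel subunits, Nalcn was lower by this measure (-1.16, adjusted p = 0.0372) and Sptbn4, a spectrin of the axon initial segment, was higher (0.89, adjusted p = 0.0242).

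**Figure D3:**
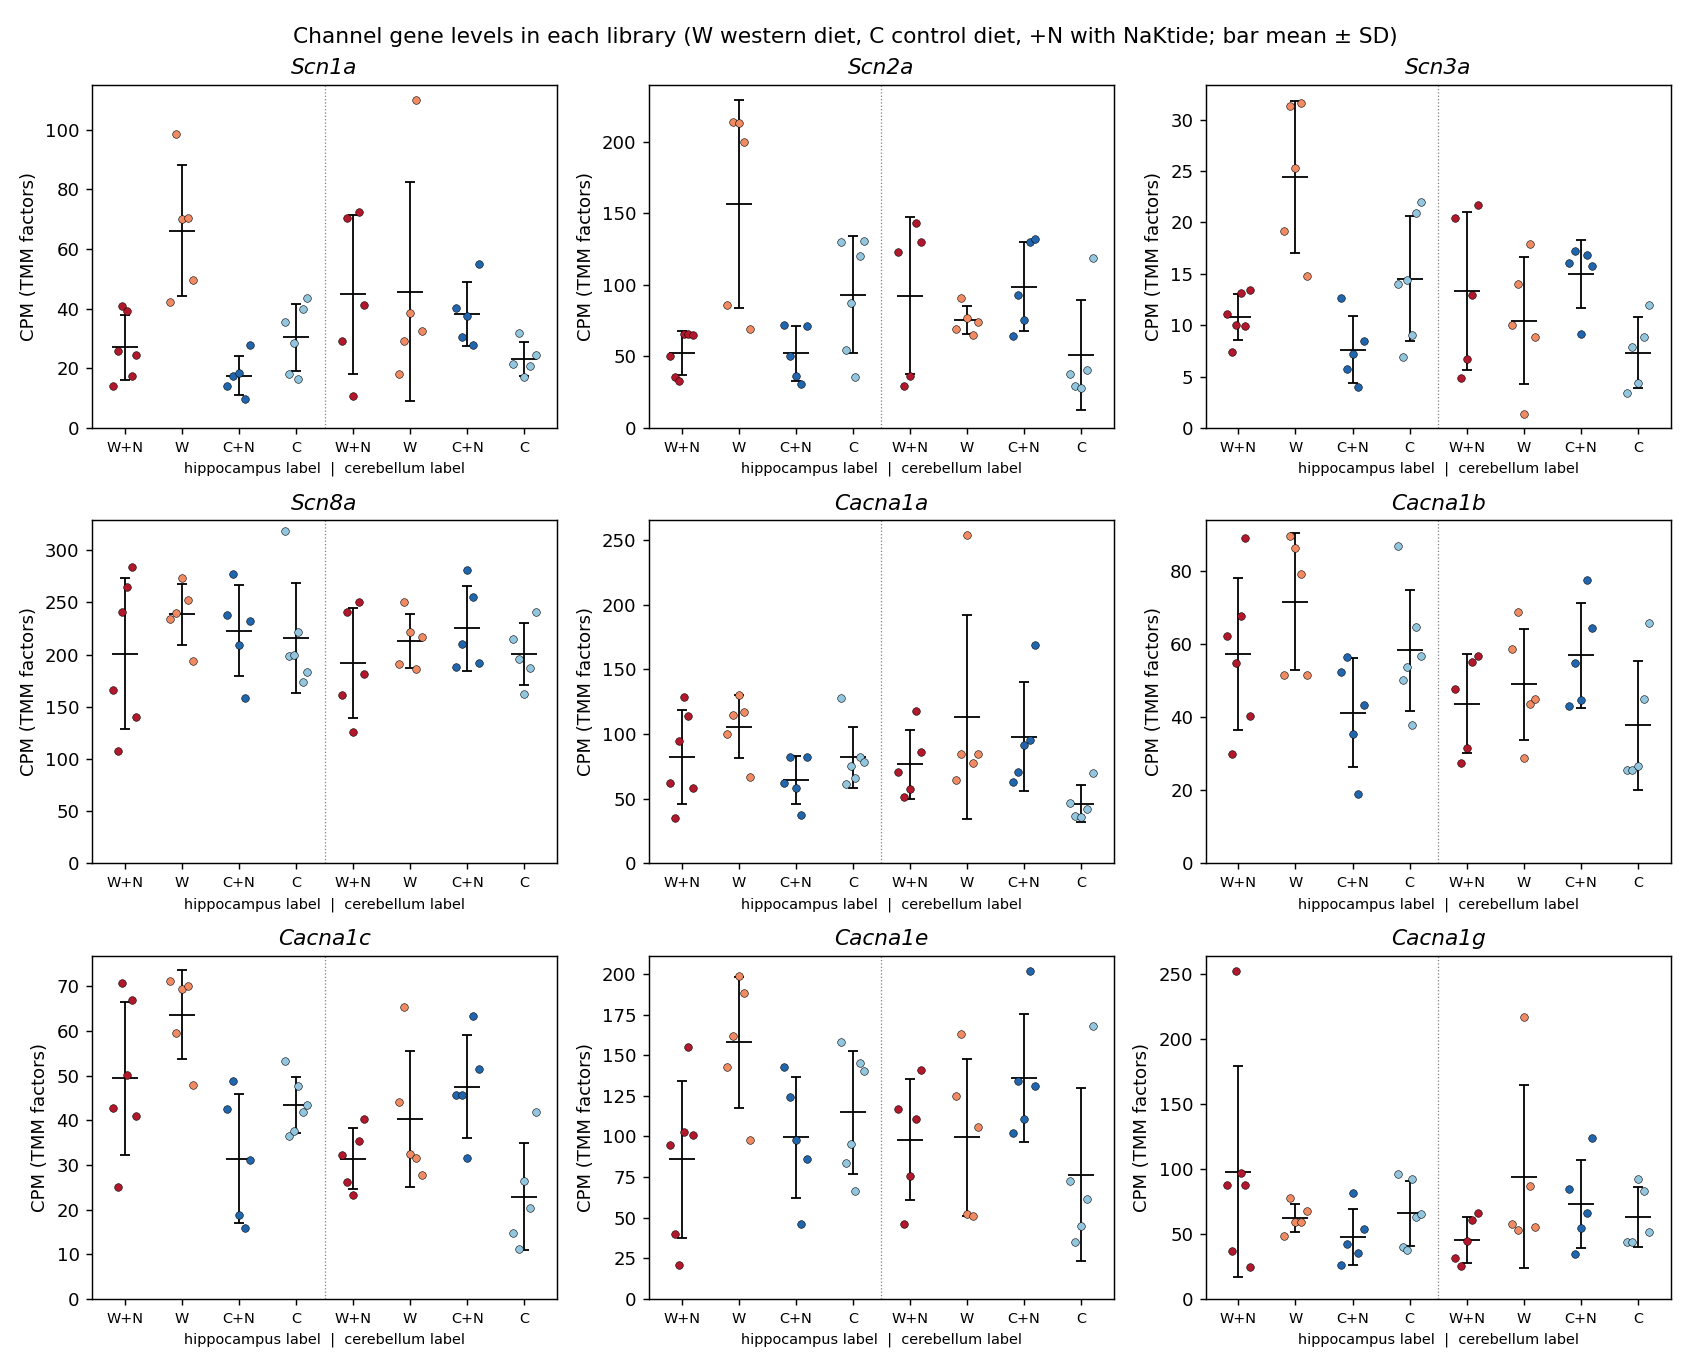
CPM of each channel gene in each of the 42 libraries (points), with mean ± SD of each group, for western diet with NaKtide (W+N), western diet (W), control diet with NaKtide (C+N) and control diet (C) under each region label. Under the hippocampus label Scn1a, Scn2a and Scn3a do not overlap between W+N and W, and cerebellum western 3 stands out for Cacna1a at 254 and Cacna1g at 217.

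The western diet without NaKtide was compared with the control diet next. In libraries labelled hippocampus 0 of 9 genes were called by edgeR, beside 0% of 16442 genes tested, with 4 of the 9 and 24.6% of all genes at an unadjusted p under 0.05. DESeq2 called 1 of the 9, Scn1a, and 5.04% of all genes. The median log2 difference of the 9 was 0.46, against -0.03 over all genes and 0.27 over the other long genes. With the length trend taken out, the differences were 0.88 for Scn1a, 0.47 for Scn2a, 0.49 for Scn3a and 0.17 for Cacna1c. Cacna1a, Cacna1b and Cacna1e then lay between 0.06 and 0.10, Scn8a had -0.20 and Cacna1g -0.32. All of these had an adjusted p of at least 0.151 by edgeR. This comparison uses the same western libraries as the NaKtide comparison, so a high value in them enters both with opposite sign.

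Scn1a stood at 42.2, 98.6, 70.2, 70.3 and 49.6 CPM on western diet, against 16.4 to 43.7 CPM with a median of 32 on control diet (log2 difference 1.13, SE 0.30, adjusted p = 0.0866 by edgeR, 0.0198 by DESeq2). All but 1 western library lay above every control library. Scn3a stood at 19.2, 31.3, 25.3, 31.6 and 14.8 CPM on western diet, against 6.89 to 22 CPM with a median of 14.2 on control diet (log2 difference 0.75, SE 0.28, adjusted p = 0.127 by edgeR), and the groups overlapped. Without the 4 libraries marked by Xist, 2 of which are control libraries, both passed, Scn1a at 1.44 (adjusted p = 0.0196) and Scn3a at 1.15 (adjusted p = 0.0225), and without hippocampus control 6 Scn1a passed at 1.26. Of all genes, 13.4% were called without those 4 libraries and 3.14% without hippocampus control 6. Scn2a differed by 0.75 (SE 0.35, adjusted p = 0.185) and Cacna1c by 0.55 (SE 0.25, adjusted p = 0.184), and the other 5 lay between -0.08 and 0.46. Dentate granule cell markers had a median of 1.16 and striatal markers one of -2.33 in the same comparison, and their part was not tested.

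Under the cerebellum label, 0 of 9 were called for the western diet, beside 0.00612% of 16338 genes tested, with 3 of 9 and 19.5% of all genes at an unadjusted p under 0.05. DESeq2 called Cacna1a (adjusted p = 0.0486) and 0.936% of all genes. Cacna1a, the P/Q-type channel of Purkinje cells and of many terminals, stood at 64.9, 84.3, 254, 77.9 and 84.6 CPM on western diet, against 46.4, 36.9, 35.8, 42.2 and 70.3 CPM on control diet (log2 difference 1.29, SE 0.36, adjusted p = 0.164 by edgeR). The ranges overlapped through control 5 alone, and without western 3 the difference was 0.75 (adjusted p = 0.236). Cacna1c, the L-type channel, stood at 44.2, 65.4, 32.5, 31.6 and 27.8 CPM on western diet, against 14.8, 11.1, 26.5, 20.4 and 41.8 CPM on control diet (log2 difference 0.81, SE 0.30, adjusted p = 0.178 by edgeR). Control 5 was again the control library within the western range. Without it both passed, Cacna1a at 1.49 (adjusted p = 0.0451) and Cacna1c at 1.14 (adjusted p = 0.045), and 5.09% of all genes were called. Scn1a differed by 0.98 (SE 0.45, adjusted p = 0.244), or by 0.35 without western 4, and Cacna1g by 0.57 (SE 0.41, adjusted p = 0.442), or by 0.00 without western 3. All 9 genes had positive log2 differences, with a median of 0.56 against 0.05 over all genes. With the length trend taken out, Scn8a had -0.20. The same control libraries enter the comparison of NaKtide on the control diet and the interaction below. A low value in them thus raises both differences and lowers the interaction. Purkinje cell markers had a median of 1.49 there, with sums of 238 to 3466 CPM on western diet and 144 to 488 CPM on control diet, and oligodendrocyte markers one of -0.81. Their part was not tested. The diet difference between the region labels gave 0 of 9 calls, beside 0% of 17088 genes (907, or 5.31%, at an unadjusted p under 0.05), with 0 of 9 at an unadjusted p under 0.05 and 0 by DESeq2. The smallest p belonged to Cacna1a at -0.92 (SE 0.46, adjusted p = 0.913) and Cacna1g at -0.65 (SE 0.61, adjusted p = 0.952).

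For most of the 9 genes, NaKtide on the control diet gave values of opposite sign under the 2 region labels. In libraries labelled hippocampus 8 of 9 log2 differences were negative, with a median of -0.45, and in those labelled cerebellum 9 of 9 were positive, with a median of 0.83, and the difference between the labels was not tested. With the length trend taken out, Scn8a (0.29) and Cacna1e (0.16) were positive under the hippocampus label, and the other genes lay between -0.65 and -0.12. Under the cerebellum label Scn8a (-0.18) and Cacna1g (-0.08) were then negative, and the other genes lay between 0.34 and 0.77. These other genes each had a smaller difference than as fitted, under both labels. Medians over all genes are not given here, so the signs are no result about channel genes as a class. By edgeR 0 of 9 were called under the hippocampus label, beside 0% of 16442 genes (2720, or 16.5%, at an unadjusted p under 0.05), with 3 of 9 at an unadjusted p under 0.05 and 0 by DESeq2. Scn3a stood at 12.6, 5.78, 7.17, 4.01 and 8.49 CPM on control diet with NaKtide, against 6.89 to 22 CPM with a median of 14.2 on control diet alone (log2 difference -0.91, SE 0.30, adjusted p = 0.210 by edgeR). Scn1a stood at 14.2, 17.5, 18.6, 9.77 and 27.7 CPM with NaKtide, against 16.4 to 43.7 CPM with a median of 32 without (log2 difference -0.77, SE 0.32, adjusted p = 0.243 by edgeR). Both overlapped, while each of the 5 NaKtide libraries lay below the control mean. Scn2a differed by -0.82 (SE 0.36, adjusted p = 0.259), also with all 5 below that mean. Hippocampus control 5 and 6 are among the 4 libraries marked by Xist. Without those 4 the log2 differences were smaller, at -0.54 for Scn3a, -0.49 for Scn1a and -0.56 for Scn2a (adjusted p = 0.916 each by edgeR). Choroid plexus markers summed to 364 to 6298 CPM with NaKtide and 9.55 to 5168 CPM without, with medians of 3761 and 306 CPM. Pituitary markers summed to 4.33 to 649 CPM with NaKtide and 3.98 to 6.10 CPM without. Control NaKtide 4, which was lowest of its group for all of the 9 genes but Cacna1g, held the highest of all of these sums. It also held 20620 CPM of oligodendrocyte markers, and its total of 4669374 counts was the smallest of all libraries. The part of these markers and of this library was not tested.

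Under the cerebellum label 0 of 9 were called by edgeR for the same comparison, beside 0.00612% of 16338 genes, with 3 of 9 and 29.5% of all genes at an unadjusted p under 0.05. DESeq2 called Cacna1a (adjusted p = 0.0471) and Cacna1c (adjusted p = 0.0332), and 8.32% of all genes. Cacna1c stood at 45.6, 45.6, 31.5, 63.3 and 51.6 CPM on control diet with NaKtide, against 14.8, 11.1, 26.5, 20.4 and 41.8 CPM on control diet alone (log2 difference 1.04, SE 0.30, adjusted p = 0.0908 by edgeR). Control 5 was the only control library inside the NaKtide range. Cacna1a stood at 63.2, 70.5, 91.6, 95.1 and 169 CPM with NaKtide, against 46.4, 36.9, 35.8, 42.2 and 70.3 CPM without (log2 difference 1.08, SE 0.36, adjusted p = 0.0959 by edgeR), and control 5 was again the overlap. Without cerebellum control 5, 5 of the 9 passed, all higher: Scn2a at 1.54, Cacna1a at 1.28, Cacna1b at 0.88, Cacna1c at 1.38 and Cacna1e at 1.34, with adjusted p of 0.0133 to 0.0292, and 26.5% of all genes were called in that fit. Oligodendrocyte markers summed to 2063 to 8941 CPM with NaKtide and 4555 to 20526 CPM without, a median log2 difference of -1.30, while pan-neuronal markers had one of 0.05. The part of these markers was not tested.

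Diet in the presence of NaKtide and the interaction of diet with NaKtide gave no calls for the 9 genes under either label. For western diet with NaKtide against control diet with NaKtide, edgeR called 0 of 9 in libraries labelled hippocampus, beside 0% of 16442 genes (1756, or 10.7%, at an unadjusted p under 0.05), with 2 of 9 at an unadjusted p under 0.05 and 0 by DESeq2. Cacna1c there ran from 25 to 70.7 CPM with a median of 46.4 on western diet, against 42.6, 48.8, 18.8, 16 and 31.1 CPM on control diet (log2 difference 0.61, SE 0.26, adjusted p = 0.440 by edgeR). Cacna1g ran from 24.7 to 252 CPM with a median of 87.9, against 25.9, 42.4, 81.4, 35.6 and 53.7 CPM (log2 difference 0.99, SE 0.42, adjusted p = 0.445 by edgeR). Both pairs of groups overlapped, and the Cacna1g difference was 0.47 without hippocampus western NaKtide 3. The same comparison under the cerebellum label gave 0 of 9, beside 0% of 16338 genes (396, or 2.42%, at an unadjusted p under 0.05), with 0 of 9 at an unadjusted p under 0.05 and 0 by DESeq2. The smallest p there belonged to Cacna1c, at 32.2, 26.1, 23.3, 35.4 and 40.3 CPM on western diet with NaKtide against 45.6, 45.6, 31.5, 63.3 and 51.6 CPM on control diet with NaKtide (log2 difference -0.59, SE 0.30, adjusted p = 0.999 by edgeR). Next was Cacna1g, at 31.2, 25.6, 44.9, 60.4 and 65.8 CPM against 84.6, 34.9, 54.9, 66.2 and 124 CPM (-0.68, SE 0.41, adjusted p = 0.999).

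The interaction asks whether NaKtide had another effect on the western diet than on the control diet. It gave 0 of 9 in libraries labelled hippocampus, beside 0% of 16442 genes (2399, or 14.6%, at an unadjusted p under 0.05), with 0 of 9 at an unadjusted p under 0.05 and 0 by DESeq2. Cacna1g had 1.07 (SE 0.59, adjusted p = 0.415), or 0.53 without hippocampus western NaKtide 3, and Scn2a -0.78 (SE 0.49, adjusted p = 0.488), so the falls of Scn1a, Scn2a and Scn3a on the western diet were not shown to differ from the values on the control diet. Under the cerebellum label 0 of 9 passed, beside 0.00612% of 16338 genes, with 3 of 9 and 17.4% of all genes at an unadjusted p under 0.05 and 0 of 9 by DESeq2, which set 7 of the 9 aside without an adjusted p. Cacna1c had -1.40 (SE 0.43, adjusted p = 0.251) and Cacna1a -1.64 (SE 0.51, adjusted p = 0.251), and all 9 were negative with a median of -0.75 against -0.05 over all genes. With the length trend taken out, Scn8a had 0.08. Without cerebellum western 3 the Cacna1a value was -1.10, and Purkinje cell markers had a median of -2.28, whose part was not tested.

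The 9 genes did not separate the region labels. For the hippocampus label against the cerebellum label, averaged over the 4 groups, edgeR called 0 of 9, beside 0.0468% of 17088 genes tested, with 1 of 9 and 12.8% of all genes at an unadjusted p under 0.05 and 0 of 9 by DESeq2. Cacna1c had the largest log2 difference, 0.41 (SE 0.14, adjusted p = 0.233). Its group means under the hippocampus label were 49.4, 63.7, 31.5 and 43.4 CPM on western diet with NaKtide, western, control with NaKtide and control diet, against 31.5, 40.3, 47.5 and 22.9 CPM under the cerebellum label. Cacna1b followed at 0.28 (SE 0.15, adjusted p = 0.425), with group means in the same order of 57.3, 71.7, 41.3 and 58.4 CPM under the hippocampus label, against 43.7, 49, 56.9 and 37.8 CPM under the cerebellum label. Scn8a differed by 0.08 (SE 0.10, adjusted p = 0.777). In only the 21 libraries labelled hippocampus and 3 labelled cerebellum whose Gabra6 level goes with the label, Cacna1a had -0.91 (adjusted p = 0.189), Cacna1g -0.85 (adjusted p = 0.506) and Scn3a 0.91 (adjusted p = 0.591).

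Some libraries with high Cacna1a or Cacna1g were also high in markers of particular regions, and others high in such markers were not high in the channel gene. Cerebellum western 3 held 211 CPM of Gabra6, 632 CPM of the Purkinje cell gene Pcp2 and 763 CPM of Car8, and its Purkinje cell markers summed to 3466 CPM, the highest of all libraries. It also held the highest Cacna1a, 254 CPM, which is 3.48 times the median of 73.1 CPM in the 38 libraries with little Gabra6, and the lowest Scn3a, 1.40 CPM against a lowest value of 4.01 CPM there. Cerebellum control NaKtide 5, with 121 CPM of Gabra6 and Purkinje cell markers at 1858 CPM, held the second highest Cacna1a, 169 CPM. Its Scn3a of 15.8 CPM was not low, and Cacna1a was 46.4 CPM in cerebellum control 1, which had 20.3 CPM of Gabra6. Cacna1g was highest in hippocampus western NaKtide 3, whose thalamus markers summed to 1394 CPM against at most 644 CPM in any other library, and second in cerebellum western 3, at 217 CPM with thalamus markers at 170 CPM. Hippocampus western 1, with the second highest thalamus sum of 644 CPM, held 48.2 CPM of Cacna1g, below the median of 59.1 CPM, and hippocampus western 4, with 23.6 CPM of Gabra6, held the highest Scn3a of all libraries, 31.6 CPM. These libraries were singled out after their values were seen.

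**Figure D4:**
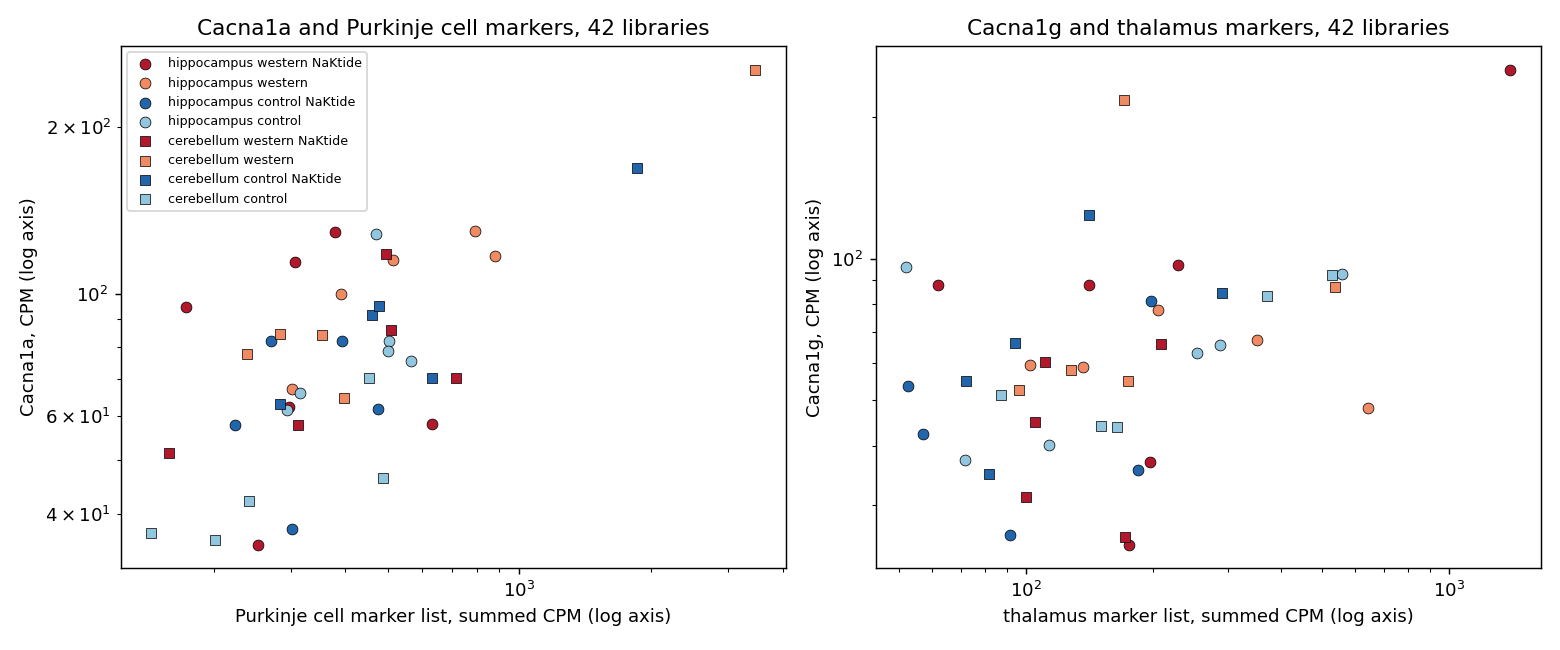
Cacna1a against the summed CPM of 8 Purkinje cell markers (left) and Cacna1g against that of 8 thalamus markers (right), in each of the 42 libraries on log axes, coloured by group (circles hippocampus label, squares cerebellum label). The highest Cacna1a, 254 CPM, lies at the highest Purkinje cell sum of 3466 CPM, and the highest Cacna1g, 252 CPM, at the highest thalamus sum of 1394 CPM.

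Within groups the 9 genes varied together to unequal degrees. With the 8 group means taken off log2 of CPM plus 1, Pearson's r over the 42 libraries had a median of 0.34 over the 36 pairs. It was highest between Cacna1b and Cacna1e at 0.77 and lowest between Cacna1e and Cacna1g at -0.22, while Scn1a and Scn2a had 0.32 and Scn1a and Scn3a 0.30. These values describe libraries that share depth and tissue content. Among 13939 genes with a mean of at least 1 CPM, those most like Scn2a by the same measure were Celf1, March6 and Med13l at 0.93 to 0.94. Scn1a was most like Zfyve9, Map7d2 and Ccdc186 (0.87 to 0.89), Scn3a most like Dcun1d4, Rab27b and Tcf20 (0.86), and Scn8a most like Ankrd27, Actr1b and Klc2 (0.80 to 0.84). Cacna1a was most like Baz2a, Tmem63c and Brpf1 (0.85 to 0.88), and Cacna1b most like Ripor1, Nol4l and Tbc1d24 (0.90). Cacna1c was most like Dclk2, Tmem131 and Crmp1 (0.81 to 0.84), and Cacna1g most like Cep164, Pitpnm1 and Chd8 (0.82 to 0.83).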

How the data were processed

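Per the submitters' processing notes, GRCm38 was the build, and HISAT2 2.1.0, Trimmomatic 0.38 and DESeq2 1.20.0 were among the tools. The labels name a stranded kit for mRNA. Counter, annotation and strand setting: not given in the sources used here. Deposited tables of 54232 genes hold raw counts, used for all tests, and FPKM, used for levels per length. The authors' FPKM equalled raw counts divided by a library size factor and an exon length (largest log residual 8.4e-15), and that length equalled the GENCODE M21 exon union within 0.1% for 96.2% of genes. Another deposited table, of normalized counts, was not used. The series' text on the design describes liver and adipose tissue, so tissues rest on the library labels.

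Labels gave the groups. Each region label's libraries, or all 42 for differences between labels, were fitted by edgeR 4.0.16 in R 4.3.3 (TMM factors, filterByExpr, quasi-likelihood F test, groups as 1 factor), with Benjamini-Hochberg adjustment over all genes tested and calls at an adjusted p under 0.05. Levels are CPM with TMM factors over all 42 libraries. The length trend was a smoothing spline with 5 degrees of freedom per library. The fit was tested on simulated data. Channel genes, lists and markers were chosen with earlier results of these data known. All 9 genes are named, with values per library where called or, with 0 called, for the 2 smallest p. Other subunits are named for the 3 smallest p called in each direction, and 3 most alike genes for each of the 9. Some results under this rule are not reported here. Alternatives were DESeq2 1.42.0, its size factors in edgeR, no low-count filter, the replicate number as a block, only the groups compared, the length trend taken out, hippocampus control 5 and 6 summed, and leaving out libraries.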

Additional observations from a re-analysis of the deposited data

Results flagged for a closer look

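In 9 of 72 sets of libraries (9 genes in 8 groups), the highest or lowest library stood apart from its group by Dixon's test, and chance flags about 1 set in 20. In cerebellum western, library 4 held 110 CPM of Scn1a against 18.1 to 38.7 CPM in the other 4, and library 3 held 254 CPM of Cacna1a against 64.9 to 84.6 CPM and 217 CPM of Cacna1g against 52.7 to 87.2 CPM. Cerebellum control 5 held 119 CPM of Scn2a against 27.7 to 40.5 CPM and 168 CPM of Cacna1e against 35.3 to 72.3 CPM. Cerebellum control NaKtide 3 held 9.1 CPM of Scn3a against 15.8 to 17.2 CPM. Hippocampus western NaKtide 3 held 252 CPM of Cacna1g against 24.7 to 97.1 CPM. Hippocampus control 1 held 318 CPM of Scn8a against 174 to 222 CPM and 128 CPM of Cacna1a against 61.7 to 82.1 CPM.

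The effect of NaKtide on the western diet differed between the region labels for Scn2a, by -1.87 on the log2 scale (hippocampus label minus cerebellum label, adjusted p = 0.0374 by edgeR), with 6 of 6 NaKtide libraries below the western mean under the hippocampus label and 3 of 5 above it under the cerebellum label. This call did not hold throughout: it was lost under 15 of the settings run, with an adjusted p of up to 0.114 by edgeR.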

How the results depend on the processing

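Under the hippocampus label, the falls of Scn1a, Scn2a and Scn3a with NaKtide on the western diet kept their direction and stayed called under every alternative run, with highest adjusted p of 0.0202, 0.0146 and 0.0205 and log2 changes of -0.93 to -1.51, -1.12 to -1.79 and -0.77 to -1.35. The number of the 9 genes called there was 3 to 4 over the leave-one-out fits. For the western diet under the hippocampus label the number was 1 by DESeq2, 2 without the 4 libraries marked by Xist and 0 to 1 over the leave-one-out fits, against 0. Under the cerebellum label it was 1 by DESeq2 and 0 to 2 over the leave-one-out fits for the western diet, and 2 by DESeq2 and 0 to 5 for NaKtide on the control diet, with 1 (Cacna1c) without western NaKtide 3 (8.38% of all genes called), against 0 each. For the NaKtide effect on the western diet between the labels it was 3 by DESeq2 (12.7% of all genes called), 0 with the compared groups only, 0 without the 4 libraries with Gabra6 and 0 to 3 over the leave-one-out fits, against 1. The cause of these moves was not tested. In all other comparisons the number stayed at 0 under the alternatives run.

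Deviations of same-numbered libraries of different groups had a median r of -0.112 under the hippocampus label, -0.0558 under the cerebellum label and -0.0237 over both. Over both labels, 47 of 141 pairs had r over 0.1, and the highest was 0.608. Pairs of the same diet and treatment under the 2 labels were not computed apart. These medians therefore cannot show whether same-numbered libraries come from 1 animal, and the main fits used the replicate number only as a name. With the replicate number as a block, 4 of the 9 were called for NaKtide on the western diet under the hippocampus label (31.8% of all genes), against 3, and 2 for its difference between the labels (13.6% of all genes), against 1, and 0 elsewhere. Of 4014 single-gene values under alternatives, 3966 kept their side of the threshold, 15 lost and 33 gained a call, and 0 called values changed sign, while 142 uncalled values did. At 8 counts in its lowest library, Scn3a has the least depth of the 9.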
